A study of Mus musculus with 4 samples.

Results

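The genes described here are 7 regulators of G protein signalling, Rgs1, Rgs2, Rgs3, Rgs10, Rgs14, Rgs16 and Rgs19. They were measured by all probes, control spots aside, whose deposited gene name equals one of these symbols, which gave 13 of the 41174 probes: 5 for Rgs3, 2 each for Rgs2 and Rgs19, and 1 each for the other 4 genes. All 13 were well above background in both dyes on all 4 arrays, and none of their spots was marked as an outlier or saturated. The arrays compared C57Bl/6 CD8+ T cells made in culture with CD8+ cells of the thymus of mice aged 4 to 5 weeks. The cultured cells came from Lin-Sca1+CD117+ marrow cells of B6 mice aged 6 to 8 weeks, grown for 35 days on OP9-DL1, a stromal line that presents the Notch ligand Delta-like, with 5 ng/ml Flt3 and 1 ng/ml IL7. Neither kind was treated further, and both were sorted as CD8+ with high TCR beta. Of each kind there were 2 RNA preps, and every thymic prep met every in vitro prep on 1 two-colour Agilent array. The labels name no separate animals or cultures behind the preps, so p-values measure only the spread between these preps. Thymic RNA was always in Cy3 and in vitro-derived RNA always in Cy5, and donor age differed as well, so dye, donor age and cell origin cannot be told apart.

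RGS proteins bind the active, GTP-loaded alpha subunit of a heterotrimeric G protein and speed up its GTP hydrolysis, which ends the signal of the receptor above it. Chemokine receptors and the sphingosine phosphate receptor S1pr1 signal through the Gi class of alpha subunits, and the amount of RGS protein in a lymphocyte is known to limit how strongly and for how long it migrates to their ligands. The members belong to 3 families. Rgs1, Rgs2, Rgs3 and Rgs16 are in the R4 family, Rgs10 and Rgs14 are in the R12 family, and Rgs19 is in the RZ family.

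In in vitro-derived cells 6 of the 7 genes were lower than in thymic cells on their brightest probe and Rgs2 alone was higher, although Rgs10 and Rgs14 changed sign when arrays were centred on their median. By probe, 10 of 13 were called lower, 1 was called higher and 2 were not called, at an adjusted p under 0.05 in limma with Benjamini-Hochberg adjustment over all 27224 tested probes. Of all tested probes 52.2% were called, 26.6% higher and 25.6% lower, and of the 19154 genes on their brightest probe 52.0% were called, 26.7% higher and 25.3% lower. The median log2 difference was -0.99 over the 13 member probes against 0.03 over all tested probes, and the median size without its sign was 0.99 against 0.26. The largest member differences were those of Rgs16 (5.67-fold lower) and of 1 probe of Rgs3 (5.40-fold lower). Of the 13 probes, 12 had the same sign on all 4 arrays, but the share of all tested probes that did so was not counted. Only Rgs16 and 4 of the 5 Rgs3 probes kept direction and call under each of the 16 alternatives run on every probe, and the calls of Rgs1, Rgs10, Rgs14 and Rgs19 all ended with median centring in place of the intensity-dependent loess normalization, which raised the median of all tested probes by 0.34.

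**Figure D1:**
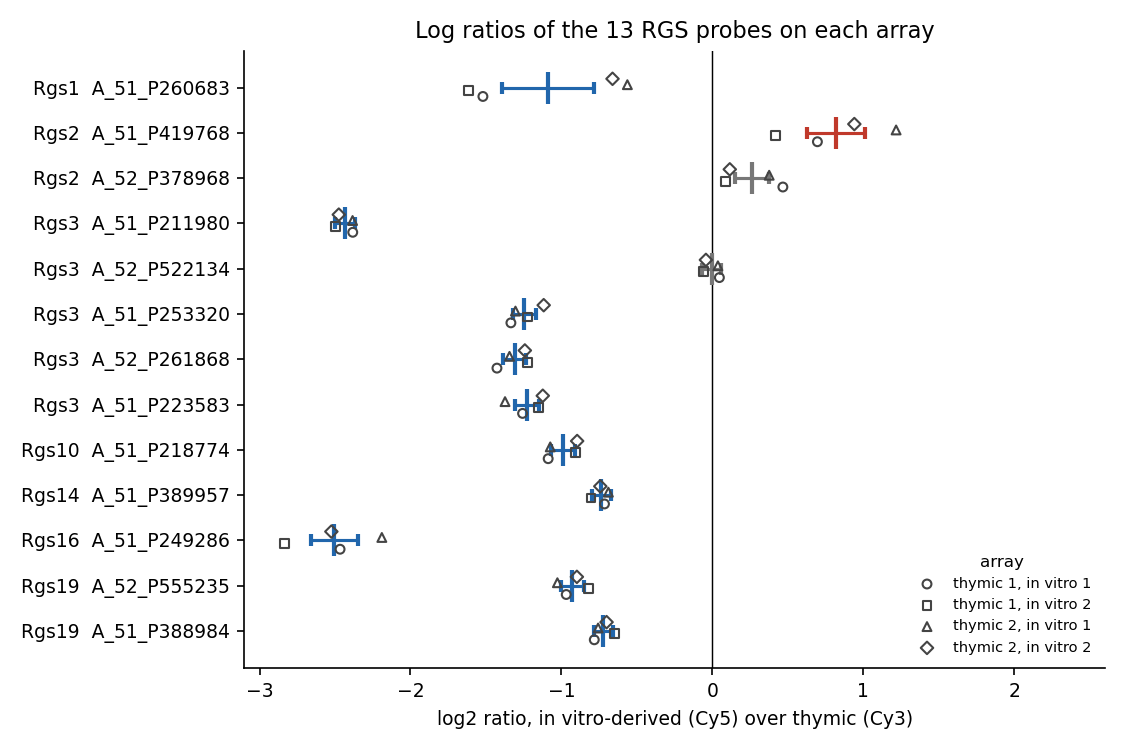
Log2 ratio of in vitro-derived (Cy5) over thymic (Cy3) signal for each of the 13 RGS probes; symbols are the 4 arrays, named by their preps, and the bar is the mean with its standard error, blue where called lower, red where called higher and grey where not called. The ratios of Rgs16 lie between -2.83 and -2.19, those of the bright Rgs2 probe are all above 0, and those of Rgs1 fall into 2 pairs by thymic prep.

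Rgs1 is a brake on chemokine receptor signalling in T and B cells and rises when lymphocytes are activated. Its normalized log2 signal was 11.49 in thymic prep 1, 10.57 in thymic prep 2, 9.99 in in vitro prep 1 and 9.89 in in vitro prep 2. Both thymic preps were above both in vitro preps, but the thymic preps stood further apart than the lower of them stood from the in vitro preps. The log ratios were -1.52 and -1.61 on the arrays with thymic prep 1 and -0.56 and -0.66 on those with thymic prep 2. The mean log2 difference was -1.09 ± 0.30 (SE, n = 2 preps of each kind), 2.13-fold lower, with a limma adjusted p of 0.0313. The size rested on the thymic prep: it was -0.61 without thymic prep 1 and -1.57 without thymic prep 2, both called from the spread of the in vitro preps alone, since 1 thymic prep was left. The call was lost without in vitro prep 1 (-1.14, limma adjusted p = 0.0758) or prep 2 (-1.04, limma adjusted p = 0.0871). It was also lost with a background model fitted on all spots (-1.09, limma adjusted p = 0.0512) and with median centring (-0.49, limma adjusted p = 0.146).

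Rgs2 acts mainly on the Gq class of alpha subunits and is itself induced early after lymphocyte activation. On its bright probe (A_51_P419768) the log2 signal was 13.83 and 13.31 in thymic preps 1 and 2 and 14.49 and 14.29 in in vitro preps 1 and 2. Both in vitro preps lay above both thymic preps. The 4 log ratios ran from 0.42 to 1.22, and the difference of 0.82 ± 0.19 (1.76-fold higher, limma adjusted p = 0.0177) was called. It was 1.08 without thymic prep 1 and 0.56 without thymic prep 2, again with 1 thymic prep that adds no spread, and was no longer called without in vitro prep 1 (0.68, limma adjusted p = 0.0645). With median centring it grew to 1.76. The other Rgs2 probe (A_52_P378968) was dim, with mean signals of 79.3 to 91.1 in Cy3 and 174.0 to 257.1 in Cy5 before background correction, over local backgrounds of 29.0 to 37.0 and 48.0 to 53.5. Its log ratios ran from 0.09 to 0.47, and its difference of 0.26 ± 0.11 was not called (limma adjusted p = 0.113). It was called without in vitro prep 2 (0.42), with 1 in vitro prep left, and with median centring (0.40). Under median centring it lay only 0.03 above the median of all tested probes. Neither probe gave a lower value in in vitro-derived cells on any array.

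Rgs16 dampens Gi and Gq signals and is known from chemokine-driven T cell trafficking. Its log2 signal was 10.50 and 10.10 in thymic preps 1 and 2 against 7.96 and 7.63 in in vitro preps 1 and 2, so that more than 2 log2 units separated the kinds. The log ratios were -2.47, -2.83, -2.19 and -2.52 on arrays 1 to 4. The difference of -2.50 ± 0.15 (5.67-fold lower, limma adjusted p = 2.06e-04) lay at the 0.474th percentile of all tested probes. It ranged from -2.97 with the authors' deposited ratio to -2.03 with median centring and was called under each alternative.

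The bases before the start sites of Rgs2, the member that rose, and of Rgs16, the single-probe member that fell most, are shown so that the pair can be compared. They are taken from RefSeq (GRCm38.p6), which holds 8 start sites for 5 of the 7 members in the table used. Each is written 5′ to 3′ on the strand of the gene and ends at the base before the start site, and capitals mark motifs found on either strand.
Rgs2, chr1:144004150-144004399, minus strand: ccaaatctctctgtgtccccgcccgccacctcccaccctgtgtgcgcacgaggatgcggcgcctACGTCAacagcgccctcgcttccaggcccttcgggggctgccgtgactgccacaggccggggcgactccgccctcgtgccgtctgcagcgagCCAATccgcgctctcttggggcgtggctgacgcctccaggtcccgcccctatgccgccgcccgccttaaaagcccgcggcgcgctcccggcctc
Rgs16, chr1:153740103-153740352, plus strand: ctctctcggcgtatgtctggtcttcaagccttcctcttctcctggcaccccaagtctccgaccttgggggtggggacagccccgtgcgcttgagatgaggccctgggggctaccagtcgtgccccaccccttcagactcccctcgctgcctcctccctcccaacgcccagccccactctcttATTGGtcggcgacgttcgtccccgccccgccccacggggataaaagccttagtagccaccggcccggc
Searched were the core of the cyclic AMP response element (TGACGT), the AP-1 motif (TGANTCA), the STAT motif (TTCNNNGAA), an interferon response motif (GAAA, any 2 bases, GAAA), the CCAAT box (CCAAT) and the TATA box (TATAAA). In the Rgs2 window the cyclic AMP response core lies 186 bases before the start site, read on the opposite strand, and a CCAAT box 94 bases before it. That core is held by 6.47% of the 32851 windows of this length in the table. The Rgs16 window holds a CCAAT box on the opposite strand, 68 bases before its start site, which 33.8% of windows hold, and none of the other motifs. The AP-1, STAT and interferon motifs, held by 6.75%, 7.02% and 2.98% of windows, are in neither. GC content is 72.4% for Rgs2 and 66.4% for Rgs16.

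Rgs3 encodes several proteins, short and long, that share the RGS domain, act on Gi and Gq and can bind G beta gamma. Its 5 probes did not give 1 value. The probe listed under NM_019492 (A_51_P211980) had log ratios of -2.38, -2.50, -2.38 and -2.47 on arrays 1 to 4, with log2 signals of 13.30 and 13.29 in the thymic preps and 10.91 and 10.80 in the in vitro preps. Its difference was -2.43 ± 0.07, 5.40-fold lower, with a limma adjusted p of 2.81e-05. Among the 4 probes listed under NM_134257, 3 fell by about the same amount: -1.31 ± 0.08 for A_52_P261868, -1.24 ± 0.08 for A_51_P253320 and -1.23 ± 0.08 for A_51_P223583, with log ratios between -1.43 and -1.12 on all arrays. The remaining one, A_52_P522134, gave log ratios of 0.05, -0.06, 0.04 and -0.04. Its log2 signal was 11.13 and 11.08 in the thymic preps and 11.12 and 11.08 in the in vitro preps, so the kinds overlapped, and its difference was -0.0046 ± 0.06 (limma adjusted p = 0.958).

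By the positions deposited with the probes, for which no source used here names a genome build, the 5 probes lie along chromosome 4 in the order A_51_P211980, A_52_P522134, A_52_P261868, A_51_P223583, A_51_P253320. From the first of these the others start 29.9, 40.7, 41.4 and 42.4 kb further on. The 3 probes that fell alike are thus within 2 kb of each other at the far end, and their listed spans are 678 bases for A_52_P261868, 919 bases for A_51_P223583 and 60 bases for A_51_P253320, against 60 bases for the other pair. The log ratio of A_52_P522134 exceeded that of A_51_P211980 by 2.42 to 2.44 on the 4 arrays. That gap was 2.44 with the deposited ratio and 2.35 with median centring. A_52_P522134 itself lay at 0.64 with median centring and was then called higher. No test of the gap between probes was made. Averaged over its 5 probes the gene lay at -1.24 ± 0.06, although single probes ranged from -2.43 to about 0.

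**Figure D2:**
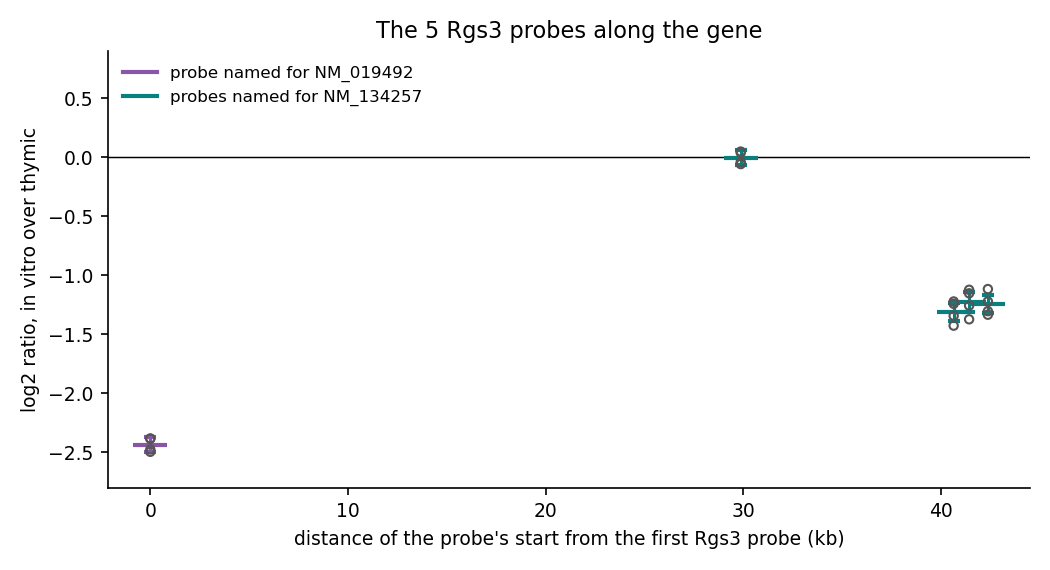
Log2 ratio of in vitro-derived over thymic signal of the 5 Rgs3 probes against their distance in kb from the first; circles are the 4 arrays and bars the mean with its standard error, purple for the probe listed under NM_019492 and teal for those listed under NM_134257. The first probe lies at -2.43, the second at about 0 and the last 3 between -1.31 and -1.23.

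RefSeq gives Rgs3 a pair of start sites in the table used, 59.8 kb apart, and the windows before them are shown because the probes of this gene disagree. The table does not say which transcript begins at which site.
Rgs3 first start site, chr4:62559597-62559846, plus strand: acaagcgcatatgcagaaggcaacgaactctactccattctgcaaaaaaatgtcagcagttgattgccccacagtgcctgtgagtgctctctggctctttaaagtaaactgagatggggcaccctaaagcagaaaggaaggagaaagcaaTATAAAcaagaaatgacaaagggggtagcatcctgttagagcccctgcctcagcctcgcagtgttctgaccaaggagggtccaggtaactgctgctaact
Rgs3 second start site, chr4:62619422-62619671, plus strand: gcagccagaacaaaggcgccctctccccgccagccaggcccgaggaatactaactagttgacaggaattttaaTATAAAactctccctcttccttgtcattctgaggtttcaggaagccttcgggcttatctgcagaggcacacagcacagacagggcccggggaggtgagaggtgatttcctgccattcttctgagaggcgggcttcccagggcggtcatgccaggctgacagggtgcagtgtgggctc
Both windows hold a TATAAA, in capitals, 100 bases before the first site and 177 bases before the second, as 12.4% of windows do. Neither holds any of the other motifs searched. Their GC content, 48.4% and 56.8%, is below that of the Rgs2 and Rgs16 windows.

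Rgs10 is a small, Gi-selective member that consists of little more than the RGS domain. Its log2 signal was 15.61 and 15.59 in the thymic preps and 14.51 and 14.71 in the in vitro preps, with no overlap. The log ratios lay between -1.09 and -0.90, and the difference was -0.99 ± 0.08, 1.99-fold lower (limma adjusted p = 4.65e-04). Rgs14 joins an RGS domain with Rap and Ras binding domains and a GoLoco motif, which holds Gi alpha in its GDP-bound form. Its log2 signal was 13.19 and 13.16 in the thymic preps against 12.47 and 12.41 in the in vitro preps, and its difference was -0.74 ± 0.06, 1.67-fold lower (limma adjusted p = 5.55e-04), with log ratios from -0.80 to -0.69. The direction of both rested on the scaling: with median centring Rgs10 lay at 0.10 and Rgs14 at 0.06, neither called, which was 0.27 and 0.31 below the median of all tested probes under that setting. With the authors' deposited ratio both were called lower.

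Rgs19, also called GAIP, binds Gi alpha subunits and carries a string of cysteines that anchors it in membranes. Its 2 probes had the same sign on each of the 4 arrays. A_52_P555235 had log2 signals of 12.35 and 12.42 in the thymic preps and 11.38 and 11.54 in the in vitro preps, and a difference of -0.93 ± 0.07 (1.90-fold lower, limma adjusted p = 4.63e-04). A_51_P388984 had 11.81 and 11.83 against 11.04 and 11.15, and a difference of -0.72 ± 0.06 (1.65-fold lower, limma adjusted p = 6.41e-04). The kinds did not overlap on either probe. With median centring both stayed below 0, at -0.22 and -0.05, but neither was called.

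**Figure D3:**
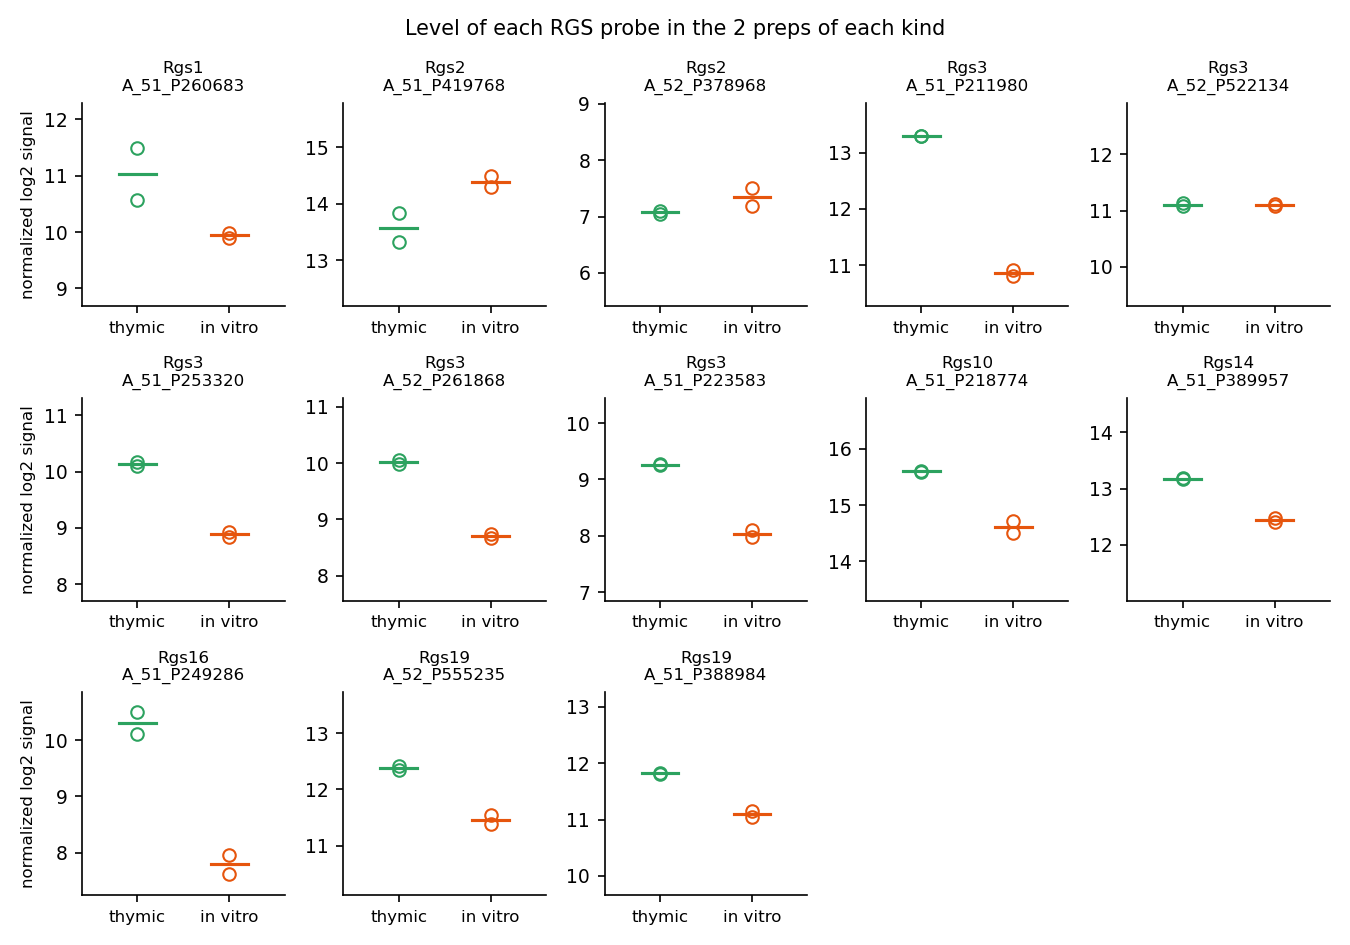
Normalized log2 signal of each RGS probe in the 2 thymic preps (green) and the 2 in vitro-derived preps (orange), each circle a prep averaged over its 2 arrays and each line the mean of a kind, and every panel spans the same range. The kinds are apart in the panels of Rgs16 and of the first Rgs3 probe and coincide for Rgs3 A_52_P522134, and the 2 thymic circles are farthest apart for Rgs1.

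**Figure D4:**
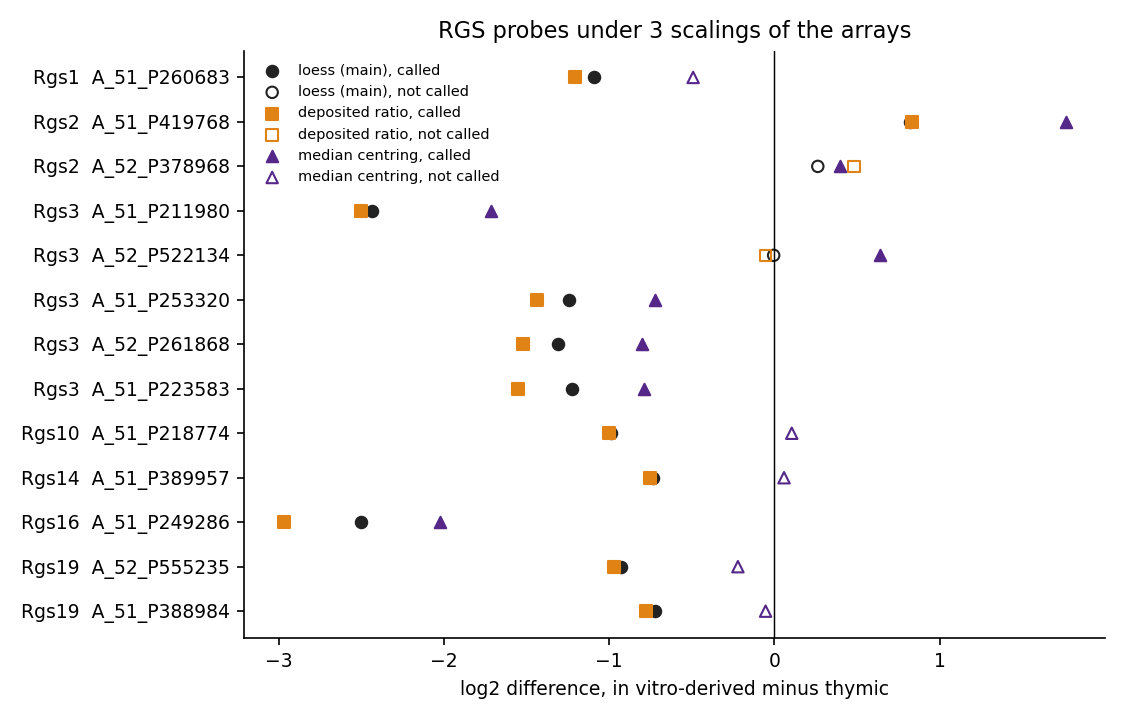
Log2 difference of each RGS probe with loess normalization (black circles), with the authors' deposited ratio (orange squares) and with median centring (purple triangles); filled symbols are called at an adjusted p under 0.05 and open ones are not. Median centring moves every probe to the right, from -0.99 to 0.10 for Rgs10, and leaves Rgs16 and 4 of the 5 Rgs3 probes called lower.

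The 2 preps of a kind stood further apart for some members than for others. Between the thymic preps Rgs1 differed by 0.95 on the log2 scale, which was the 99.95th percentile of such gaps in size over all tested probes. The bright Rgs2 probe differed by 0.52 and Rgs16 by 0.29, at the 99.6th and 98.0th percentile. All 3 were higher in thymic prep 1. The other 10 member probes differed by at most 0.07 between the thymic preps. Between the in vitro preps Rgs16 differed by 0.35 and the Rgs2 probes by 0.32 and 0.28, each higher in prep 1, and the others by at most 0.18. Rgs1 and Rgs2 are genes that lymphocytes induce quickly, so the list of immediate early genes of lymphocyte activation is set beside them. Of its 18 tested genes 15 were higher in thymic prep 1, against 12769 of all 27224 tested probes. The median gap was 0.38, against -0.01 over all tested probes. Junb (1.59), Fos (1.17), Dusp1 (0.89), Zfp36 (0.63) and Jun (0.51) differed by more than 0.5, as did 124 of the 27224 tested probes (0.456%). Between the in vitro preps Jun (1.22), Nr4a1 (0.90), Fosb (0.67) and Jund (0.52) were higher in prep 1 by more than 0.5, and Dusp2 lower (-0.57). This limit was set after the values were seen. Over all tested probes gaps were wider between the in vitro preps (SD 0.193) than between the thymic preps (SD 0.110). In size the in vitro gap of Jund lay at the 98.0th percentile and that of Jun at the 99.93rd. Between kinds the list had 6 genes higher, 6 lower and 6 not called, with a median of 0.16, against 10 higher and 2 lower with median centring (median 0.73). Of all 27224 tested probes, median centring called 16110 higher and 3153 lower, with a median of 0.37. Nr4a1 (1.95), Fosb (1.74) and Jun (1.44) had the largest increases, and Egr3 (-1.55), Dusp2 (-1.35) and Fosl2 (-1.05) the largest decreases. The other Egr3 probe lay at -0.16 and was not called, and with median centring Dusp2 lay at -0.20 and was not called. Jun lay at 0.83 without in vitro prep 1 and lost its call without thymic prep 2 (1.19, limma adjusted p = 0.0901). The part of these genes in the values of Rgs1 and Rgs2 was not tested.

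**Figure D5:**
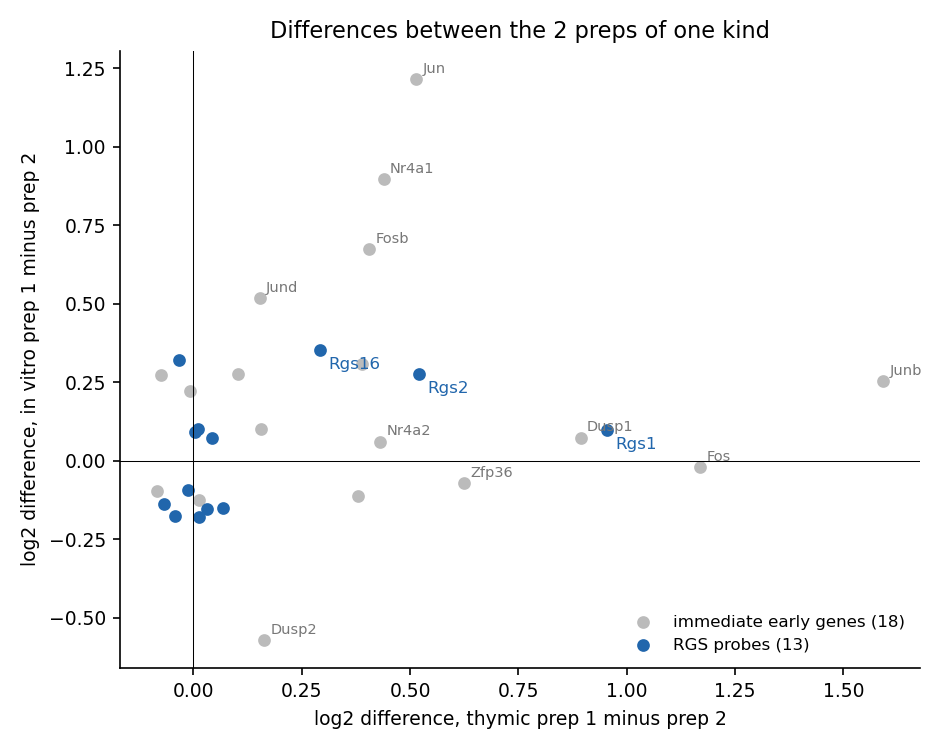
Log2 difference between thymic preps 1 and 2 (horizontal) against that between in vitro preps 1 and 2 (vertical), for the 13 RGS probes (blue) and the 18 immediate early genes (grey). Rgs1 (0.95), Rgs2 (0.52) and Rgs16 (0.29) lie to the right of the other RGS probes, on the side of Junb, Fos and Dusp1.

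Rgs1 and Rgs2 lie in a cluster of RGS genes on chromosome 1. In the RefSeq order (GRCm38.p6) the protein-coding genes are Rgs2, Rgs13, Rgs1, Rgs21 and Rgs18, with no other of that kind between them. Rgs13 and Rgs18 were not well above background in either dye on any array, and Rgs21 has no probe by that name. The pair of the cluster with signal went in opposite directions, Rgs2 higher and Rgs1 lower, with no overlap of the kinds for either. The call of Rgs1 was lost under the settings named with it.

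Of the other RGS and RGS-binding genes listed, 16 of 19 were on the array and 7 were tested: 1 rose, 3 fell and 3 were not called, with a median of -0.03 against 0.03 over all genes. Rgs12, the large R12 family member with a PDZ domain, rose by 2.53 ± 0.06 (5.77-fold, limma adjusted p = 2.09e-05), from log2 signals of 10.79 and 10.80 in the thymic preps to 13.27 and 13.37 in the in vitro preps. Its relatives Rgs10 and Rgs14 had the opposite sign with loess, but not with median centring. Rgs11, a member that works with the G protein subunit Gnb5, was 3.91-fold lower (-1.97 ± 0.06), with 10.08 and 10.21 in the thymic preps against 8.25 and 8.10. Both kept sign and call with median centring (3.25 and -1.48). Axin1 (-0.34) and Axin2 (-0.30), scaffolds of Wnt signalling that carry an RGS domain, fell slightly, but were called higher with median centring (0.30 and 0.21). Both values were below the median of all tested probes under that setting, 0.37. With thymic prep 1 or prep 2 left out neither was called (Axin1 at -0.31 and -0.38, Axin2 at -0.28 and -0.33). Of the RZ relatives of Rgs19, Rgs20 lay at 0.17 and was not called, and no array had Rgs17 well above background. The same held for Rgs4 and Rgs5, which are typical of smooth muscle and pericytes.

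RGS proteins act on G alpha subunits, and of 11 tested alpha genes 1 rose, 5 fell and 5 were not called (median -0.18), against 6 called higher and 1 lower with median centring (median 0.23). For this and the lists below, the background under median centring is 16110 probes called higher and 3153 lower of the 27224 tested, with a median of 0.37. Gnai2, the main Gi alpha subunit of lymphocytes, fell by 0.93 (SE 0.08) and Gnaq, the Gq subunit, by 0.95 (SE 0.09). Gnai3 rose by 0.71 ± 0.06, and Gnai1 fell by 0.64 on its brighter probe but lay at 0.04 on the other. With median centring Gnai2 lay at 0.00 (0.0037) and Gnai1 at -0.02, neither called, while Gnaq (-0.52) and Gnai3 (1.66) kept sign and call. Of 12 beta and gamma genes 2 rose, 3 fell and 7 were not called (median -0.03), against 7 higher and 3 lower with median centring (median 0.48). Gng2, a gamma subunit, was 5.32-fold lower (-2.41 ± 0.15), followed by Gngt2 (-0.95) and Gnb4 (-0.93). Gng12 rose by 0.97 and Gnb1 by 0.24. All 5 kept their sign with median centring. Gnb1 lost its call without thymic prep 1 (0.25) or prep 2 (0.23).

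Among 24 tested chemokine and other migration receptors 6 rose and 14 fell, with 4 not called (median -0.48), against 9 higher and 13 lower with median centring (median -0.25). Cxcr4, which holds immature thymocytes in the cortex, rose by 1.30 ± 0.09, and Ccr9, the receptor for the thymic chemokine Ccl25, by 0.76 ± 0.08. Ccr7, which guides mature thymocytes to the medulla, fell by 2.83 (SE 0.14). S1pr1, the exit receptor, lay at -0.82 ± 0.25 (limma adjusted p = 0.0398), with ratios of -1.20 and -1.21 on the arrays of in vitro prep 1 and -0.43 and -0.44 on those of prep 2. Without in vitro prep 1 it lay at -0.43, called from the spread of the thymic preps alone, since 1 in vitro prep was left. Without thymic prep 1 (-0.83) or prep 2 (-0.81) the call was lost. With median centring it lay at -0.13 and was not called. The receptors with the largest increases were Cxcr5 (2.43), P2ry14 (1.66) and P2ry10 (1.57), and those with the largest decreases were Cxcr6 (-4.55), Ccr7 and Gpr18 (-2.67).

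Below the G proteins, 3 of 23 tested effector genes rose, 13 fell and 7 were not called (median -0.47), against 12 higher and 5 lower with median centring (median 0.28). The G beta gamma dependent kinase gene Pik3cg rose by 0.65 ± 0.06, Plcb3 by 0.93 and the adenylyl cyclase gene Adcy9 by 1.11. Adcy7 fell by 1.58, Arhgef1, which has an RGS-like domain, fell by 1.54, and Plcb2 fell by 1.23. These 6 kept their signs and calls with median centring. Of 15 receptor kinases, arrestins and other modulators of G proteins 5 rose, 7 fell and 3 were not called (median 0.11), against 11 higher and 2 lower with median centring (median 0.49). Both beta-arrestins, which uncouple activated receptors, fell: Arrb2 by 1.74 (SE 0.06) and Arrb1 by 1.07 (SE 0.12). The receptor kinase gene Grk6 fell by 0.97 (SE 0.07), or lay at -0.18 and not called with median centring. Grk2 rose by 0.55 on its brightest probe, but 1 of its other probes was called lower (-0.58). Gpsm1 (1.26) and Gpsm2 (0.75), which carry GoLoco motifs as Rgs14 does, rose. Gpsm2 lay at 0.43 without in vitro prep 2 and lost its call without thymic prep 1 (0.70, limma adjusted p = 0.0913).

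In bulk RNA, fewer cells of a type and less RNA per cell cannot be told apart. The 9 genes that define CD8+ T cells were all well above background in both dyes on all arrays. Of them 6 were called lower, 1 higher and 2 not called (median -0.59), against 7 higher and 0 lower with median centring (median 0.42). The largest decreases of the list were those of Cd5 (-1.39 ± 0.16), Cd8b1 (-0.95 ± 0.21) and Cd8a (-0.76 ± 0.10). For comparison, Rgs10 lay at -0.99, Rgs14 at -0.74 and the brighter Rgs19 probe at -0.93. Lck was called higher (0.49), and Cd3d (0.02) and Cd247 (-0.10) were not called. Without in vitro prep 2 Cd8b1 lay at -0.63, and its other probe lay at -0.20 and was not called. With median centring Cd5 lay at -0.33 and Cd8b1 at 0.38, neither called, and Cd8a at 0.42, called higher. Of 15 tested stromal markers 12 were called higher, 1 lower and 2 not called, with a median of 1.49. Of those called higher, Col6a1, Postn, Fn1, Cxcl12 and Serpinh1 were well above background on all 4 arrays only in Cy5. They could hardly have been called lower. Pdgfrb was 25.8-fold higher, Col1a1 13.1-fold, Cxcl12 11.0-fold and Col1a2 7.69-fold. The dimmer probes of Col1a1 and Cxcl12 were also called higher but by less, with log2 differences of 1.22 (against 3.71) and 1.75 (against 3.46). Acta2 was the one called lower (-0.91), while 1 of its other probes was called higher (0.66). The summed signal of the stromal list was 28215 and 28980 in the thymic preps and 28880 and 31474 in the in vitro preps, most of it from Acta2. Without Acta2 it was 5612 and 5230 in the thymic preps and 16310 and 19440 in the in vitro preps. Pdgfra was not well above background in either dye on any array. Markers of double-positive thymocytes were called higher in 8 of 10 and not called in 2, Cd1d1 (0.23) and Cd4 (0.15). The dimmer Cd4 probe was called higher (0.64). The summed signal of the list was 42709 to 42960 in thymic and 287630 to 328160 in in vitro preps. Without Dntt, the brightest, it was 40010 to 40320 in thymic and 124000 to 137200 in in vitro preps. Markers of gamma delta T cells were called higher in 6 of 6. Of these, Blk and Sox13 were well above background in Cy3 on only 1 array, so they could hardly have been called lower. Tcrg, the brightest of the list, had log2 signals of 10.98 and 10.97 in the thymic preps and 15.77 and 15.82 in the in vitro preps. Without Tcrg the summed signal was 958.0 to 982.7 in the thymic preps and 15010 to 15520 in the in vitro preps. No full sum is given for this list, because its untested gene Cd163l1 did not have a ratio on every array. Of 7 tested NK markers 1 was called higher and 4 lower (14886 to 15628 against 2184 to 4273, or 1214 to 1298 against 800.4 to 1077 without Klrd1, the brightest), of 8 B cell markers 2 higher and 1 lower, and of 13 myeloid markers 5 higher and 4 lower. Ncr1 and Klrk1 of the NK list, Ebf1 and Fcrla of the B cell list and Elane, S100a8 and Siglech of the myeloid list were not well above background on any array. Klra8, Klra7 and Lyz1, called lower, were above it on all 4 arrays only in Cy3, and Blk and Itgam, called higher, only in Cy5. These sums without the brightest gene were added after the data were seen. The part of these cell types in the RGS values was not tested.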

How the data were processed

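Spot intensity values, the mean signal and median local background of each dye, were deposited by the authors in scanner files of Agilent's Feature Extraction (version 9.5.1.1, per the file headers), 1 per array. The values deposited for the whole series are log10, Cy5 over Cy3: they match the scanner's own log ratio, and their median is 0 on each array. Feature Extraction had subtracted background and normalized the dyes before that ratio, per the file headers.

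From the intensities, log2 ratios were computed with limma 3.58.1 in R 4.3.3. Spots marked as outliers (133 to 187 per array) were left out, normexp (offset 50) corrected the background, and loess, giving controls weight 0, normalized each array. A probe was tested where either dye was well above background on each of the 4 arrays (27224 of 41174 probes). A probe that passed in 1 dye alone could hardly be called higher in the other dye, and 24652 passed in both. The share of the 43379 spots other than controls above background was 63.7% to 65.6% for Cy3 and 66.5% to 70.9% for Cy5. Each prep lay on 2 arrays, so the 4 log ratios were turned into 4 prep values by least squares, and kinds were compared with lmFit and eBayes (2 residual and 3.19 prior degrees of freedom). With 2 preps against 2, the smallest p of an exact permutation test is 0.333, so calls lean on the variance limma shares over probes. Levels are log2 signals after loess and Aquantile and compare preps on 1 probe, except that marker lists are also summed over genes on the linear scale, where the brightest gene weighs most.

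A gene outside the 7 stands by its brightest tested probe. Names were updated through RefSeq accessions, which 22951 probes matched. Named are all member probes, in each pathway list the called genes with the 3 largest differences in each direction, and 9 genes fixed by role (Gnai2, Gnb1, Cxcr4, Ccr7, Ccr9, S1pr1, Pik3cg, Grk2, Grk6). The members and the lists were chosen with earlier results of these data known, as was the omission of marked spots before the background model. The fit was tested on simulated data. Alternatives were median centring, Aquantile, a background model on all spots, an offset of 16, the deposited ratio, 2 other filters, prep number as a block, each prep or array left out, and means over probes. Leaving each prep out for the listed genes was added after the data were seen.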

Additional observations from a re-analysis of the deposited data

How the results depend on the processing

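The 13 member probes were recomputed under 16 alternatives. Rgs16 and 4 Rgs3 probes kept direction and call in all of them, and the other 8 changed in at least 1. Median centring changed most: it called 3 member probes higher and 5 lower, against 1 and 10, and turned Rgs10 to 0.10, Rgs14 to 0.058 and Rgs3 A_52_P522134 to 0.64. Of all calls 83.6% were then higher, against 51.0%. The cause was not tested. Leaving out 1 prep or array gave 0 to 2 member probes called higher and 9 or 10 lower. Without in vitro prep 1 no member was called higher, and without in vitro prep 2 both Rgs2 probes were. Rgs3 A_52_P522134, near 0, moved between -0.051 and 0.042 with 1 prep or array left out. A background model fitted on all spots called 9 member probes lower and 10134 of all probes against 14219. Leaving out thymic prep 1 or 2 called 8712 or 8161, and no filter on dim probes 34.4% of 41089 probes. Aquantile leaves log ratios as they are by construction. Preps of the 2 kinds share only a number: with the number as a replicate block 1 member probe was called higher and 10 lower, and 14667 probes in all, and the prep differences correlated at 0.13 across probes. With means over probes no member gene changed direction or call. Signal over background was lowest for the dim Rgs2 probe.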

Other observations

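The genes whose 4 log ratios were nearest to a member's, by root mean square difference over the arrays and among all tested genes, are given as a description. Nearest to Rgs16 were Usp18 (distance 0.138, difference -2.53), an interferon-induced protease gene, and Lta (0.179, -2.41), which encodes lymphotoxin. Nearest to Rgs3 on its brightest probe were Oplah (0.036) and Isg15 (0.041), another interferon-induced gene. Rgs2 was nearest to Mafk (0.025, difference 0.82) and the histone gene H3c1 (0.113). Rgs10 was nearest to Ercc6 (0.022) and Nfkb1 (0.025), Rgs14 to Pfn1 (0.019) and Prkch (0.020), and Rgs19 to Pptc7 (0.028) among genes with a symbol. The genes nearest to Rgs1 were at 0.165 and 0.193 and have only array design names.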
